A study of Mus musculus with 6 samples.

Results

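The 4 mouse tropomyosin genes, Tpm1, Tpm2, Tpm3 and Tpm4, were followed in RNA-seq of C2C12, a mouse myoblast cell line whose cells leave the cell cycle and fuse into multinucleate myotubes in low serum. The genes were chosen by name, through their NCBI gene numbers, and not by their values. They are 4 of 17558 genes and hold 42 of the 57920 RefSeq transcripts in the deposited table. Of the 42 transcripts, 22 belong to Tpm1, 4 to Tpm2, 15 to Tpm3 and 1 to Tpm4. In RefSeq 19 are curated and 23 are predicted models. Reads were assigned to 41 of them in at least 1 library, and 21 reached a mean of 50 estimated counts over the 6 libraries.

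The study asked what the 2 pyruvate kinase isoforms made from Pkm, called Pkm1 and Pkm2, do in myoblast differentiation. Cells of wild-type genotype stably carried a scrambled short hairpin RNA that targets no gene (shScr), a hairpin against Pkm1 (shPkm1) or a hairpin against Pkm2 (shPkm2), with 2 libraries per group. All 3 groups had been grown in 10% fetal bovine serum and then held for 48 h in 2% horse serum with insulin, transferrin and selenium, so no group stayed in growth medium. The labels do not say whether each stably transfected line was a pool or a clone. They also do not say that the 2 libraries of a group came from separate cultures. The p-values below therefore measure only the spread between these libraries, which may be technical.

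Tropomyosins are coiled-coil proteins that lie end to end along actin filaments and decide which other proteins can bind there. In striated muscle they sit with troponin on the thin filament and control contraction. In other cells they mark different populations of actin filaments. Each gene makes several products through alternative promoters, which give a long or a short protein, and through alternative exons, among them the last coding exon. Tpm1, Tpm2 and Tpm3 can all end in a striated-type or a non-muscle-type exon, and Tpm4 in rodents makes a short non-muscle protein. The non-muscle-type end is shared with smooth muscle tropomyosins, so an end called non-muscle below can also be that of a smooth muscle form.

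The total was 18216896 to 19796036 estimated counts per library. Replicate libraries correlated at 0.988 (shScr), 0.994 (shPkm1) and 0.994 (shPkm2) across genes in log2 counts per 1000000 (CPM), a description across genes and not a test. The target check went against 1 label. The Pkm1 transcript was at 546 and 589 transcripts per 1000000 (TPM, a level corrected for transcript length) in shScr, 243 and 218 in shPkm1, and 254 and 254 in shPkm2. The Pkm2 transcript was at 1073 and 1517 TPM in shScr and at 1278 and 1379 in shPkm1. In the libraries labelled shPkm2 it was at 2700 and 2630 TPM, higher than in either other group, so these 2 libraries are called the pair labelled shPkm2 throughout. Across 12643 genes tested, edgeR's quasi-likelihood test with Benjamini-Hochberg adjustment called 63.1% of genes at an adjusted p under 0.05 between shPkm1 and shScr, 68.0% between the pair labelled shPkm2 and shScr, and 53.0% between the 2 hairpins. The calls between shPkm1 and shScr were 4018 higher and 3966 lower. Scaling by library totals made them 5116 and 2656, and moved the median of all genes to 0.19 (log2). For the pair labelled shPkm2 against shScr, 4283 higher and 4319 lower became 6095 and 2702, with a median of 0.33. Between the hairpins, 3246 higher and 3457 lower became 4280 and 2699, with a median of 0.14.

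The last coding exons are shown because the transcripts of each gene are grouped by them below. They were read from GENCODE M21 (GRCm38) and hold coding sequence only. In the 3 striated-type exons, capitals mark the 62 of 79 positions with the same base in all 3 genes. They lie at chr9:67029664-67029742 on the minus strand (Tpm1), chr4:43515924-43516003 on the minus strand (Tpm2) and chr3:90091013-90091091 on the plus strand (Tpm3).
Tpm1 striated: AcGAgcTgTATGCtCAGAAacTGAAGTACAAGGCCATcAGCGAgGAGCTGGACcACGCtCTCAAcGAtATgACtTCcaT
Tpm2 striated: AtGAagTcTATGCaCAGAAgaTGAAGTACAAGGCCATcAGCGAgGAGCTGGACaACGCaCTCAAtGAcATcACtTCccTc
Tpm3 striated: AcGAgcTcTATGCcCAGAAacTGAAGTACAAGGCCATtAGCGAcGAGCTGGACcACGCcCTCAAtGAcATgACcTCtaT

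In the 4 non-muscle exons, capitals mark the 35 of 80 positions shared by all 4 genes. They lie at chr9:67023362-67023441 on the minus strand (Tpm1), chr4:43514782-43514861 on the minus strand (Tpm2), chr3:90099528-90099607 on the plus strand (Tpm3) and chr8:72151742-72151821 on the plus strand (Tpm4).
Tpm1 non-muscle: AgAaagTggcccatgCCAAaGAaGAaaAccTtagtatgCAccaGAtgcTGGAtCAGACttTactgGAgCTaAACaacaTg
Tpm2 non-muscle: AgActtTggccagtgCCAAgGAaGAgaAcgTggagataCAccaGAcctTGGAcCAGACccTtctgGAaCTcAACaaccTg
Tpm3 non-muscle: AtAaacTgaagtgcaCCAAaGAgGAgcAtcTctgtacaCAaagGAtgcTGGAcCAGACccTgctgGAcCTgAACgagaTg
Tpm4 non-muscle: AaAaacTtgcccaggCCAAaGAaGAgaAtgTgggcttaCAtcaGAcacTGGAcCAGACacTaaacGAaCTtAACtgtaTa

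Position by position, the striated exon of a gene was more like the striated exons of the other genes than like its own non-muscle exon. The striated exons were 82.3% to 88.6% identical between genes. Within 1 gene, the striated and non-muscle exons were 43.0% identical in Tpm1, 41.2% in Tpm2 and 45.6% in Tpm3.

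At the level of whole genes, the tropomyosins moved in opposite directions. Tpm1 and Tpm2 were lower and Tpm4 was higher under both hairpins, and Tpm3 rose in both comparisons that involve the pair labelled shPkm2. The comparisons of each hairpin with the control use the same 2 shScr libraries. Of the 4 genes, 3 passed the test between shPkm1 and shScr (background 63.1%), 4 between the pair labelled shPkm2 and shScr (68.0%) and 4 between the hairpins (53.0%). With most genes called, these counts alone say little, and the sizes and directions carry the description. In bulk RNA, fewer cells that make a transcript and less transcript per cell cannot be told apart.

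Tpm2 (chr4:43513726-43523583, GRCm38, the build also named mm10) encodes beta-tropomyosin, abundant in skeletal muscle. Its gene sum was 6819 and 4932 TPM in shScr, 2224 and 2258 in shPkm1, and 450 and 428 in the pair labelled shPkm2. The 3 groups did not overlap, and the 2 shScr libraries stood further apart than those of the other groups. Tpm2 fell 3.35-fold in shPkm1 (log2 fold change -1.75, SE 0.17, adjusted p = 1.68e-06). It fell 17.2-fold in the pair labelled shPkm2 against shScr (-4.10, SE 0.19, adjusted p = 6.32e-10) and 5.12-fold against shPkm1 (-2.36, SE 0.17, adjusted p = 1.23e-07).

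Tpm1 (chr9:67022590-67049672) encodes alpha-tropomyosin of striated muscle along with several non-muscle products. It was at 3821 and 3396 TPM in shScr, 1977 and 2056 in shPkm1, and 1431 and 1375 in the pair labelled shPkm2. Tpm1 fell in shPkm1 (log2 fold change -1.06, SE 0.14, adjusted p = 1.78e-05) and in the pair labelled shPkm2 (-1.46, SE 0.14, adjusted p = 6.75e-07). The smaller difference between the hairpins (-0.40, SE 0.13, adjusted p = 0.0228) was lost when any of the 4 hairpin libraries was left out, with adjusted p from 0.0642 (without shPkm1 replicate 1) to 0.164 (without shPkm1 replicate 2).

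Tpm4 (chr8:72135288-72153142), whose product is found on actin filaments outside the sarcomere, went the other way. Its single transcript was at 177 and 223 TPM in shScr, 567 and 514 in shPkm1, and 729 and 709 in the pair labelled shPkm2, with no overlap between groups. Tpm4 rose 2.07-fold in shPkm1 (log2 fold change 1.05, SE 0.11, adjusted p = 3.00e-06) and 2.63-fold in the pair labelled shPkm2 (1.40, SE 0.11, adjusted p = 1.22e-07). In limma on log2(TPM + 1) these rises were 1.43 and 1.85, beside medians of 0.31 and 0.36 over all genes tested. The difference between the hairpins was 0.35 (SE 0.11, adjusted p = 0.0144), and it too was lost whichever hairpin library was left out (adjusted p 0.0698 without shPkm1 replicate 1 to 0.113 without shPkm1 replicate 2).

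Tpm3 (chr3:90072651-90100902) serves slow muscle fibres and, through other transcripts, most non-muscle cells. Its sum was 275 and 303 TPM in shScr, 339 and 305 in shPkm1, and 535 and 513 in the pair labelled shPkm2. The last pair lay above the other 4 libraries. Tpm3 rose against shScr (log2 fold change 0.51, SE 0.10, adjusted p = 0.00055) and against shPkm1 (0.64, SE 0.10, adjusted p = 0.00014). In shPkm1 against shScr it was not called (-0.13, SE 0.10, adjusted p = 0.278), and the sign turned under scaling by library totals (0.06) and in limma on log2(TPM + 1) (0.16).

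**Figure D1:**
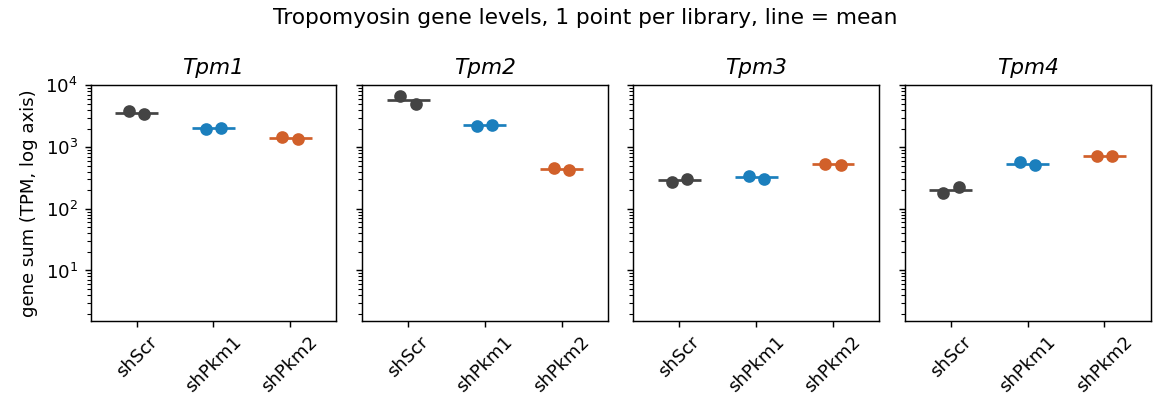
Gene sums of the 4 tropomyosin genes in TPM on a log axis, 1 point per library and a line at the mean of each group of 2. Tpm2 drops from 6819 and 4932 TPM in shScr to 450 and 428 in the pair labelled shPkm2, while Tpm4 climbs from 177 and 223 to 729 and 709.

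The 4 genes together made up less of the mRNA under both hairpins. Their summed level was 11092 and 8854 TPM in shScr, 5106 and 5133 in shPkm1, and 3145 and 3026 in the pair labelled shPkm2. The mix of genes changed with the total. Tpm2 supplied 58.6% ± 4.1 (SD, n = 2) of tropomyosin TPM in shScr, 43.8% ± 0.30 in shPkm1 and 14.2% ± 0.11 in the pair labelled shPkm2. Tpm4 supplied 2.06% ± 0.65, 10.6% ± 0.77 and 23.3% ± 0.18 in the same order. Tpm3 went from 2.95% ± 0.67 to 6.29% ± 0.49 and 17.0% ± 0.034. Tpm1 supplied 36.4% ± 2.8, 39.4% ± 0.96 and 45.5% ± 0.036, which made it the largest part in the pair labelled shPkm2, where its own level was lowest. With 2 libraries per group an exact permutation test of such a share cannot go below 0.333, so the shares are given as a description.

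**Figure D2:**
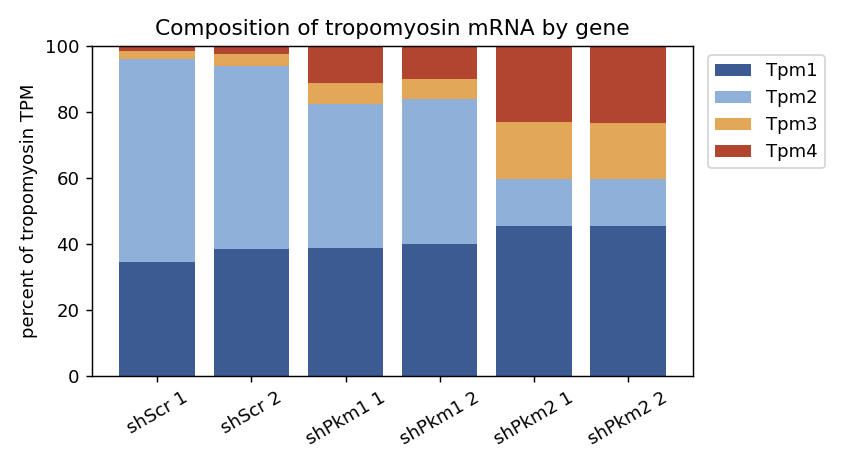
Percent of all tropomyosin TPM from each gene, 1 stacked bar per library. The Tpm2 segment is largest in shScr (61.5% and 55.7%) and smallest in the pair labelled shPkm2 (14.3% and 14.2%), where Tpm3 and Tpm4 take 17.0% and 23.2% or more of the bar.

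Tpm1, Tpm2 and Tpm3 each held transcripts that moved in opposite directions, and they were grouped by their last coding exon. The 19 curated transcripts could be tied to a GENCODE structure and the 23 predicted ones could not. Each of these 3 genes was therefore summed in 3 classes: striated-type end, any other end (nearly all non-muscle) and no structure. Of the 9 class sums, 8 passed the test between shPkm1 and shScr (background 63.1%), 9 between the pair labelled shPkm2 and shScr (68.0%) and 7 between the hairpins (53.0%). All 3 striated-type sums fell under both hairpins relative to shScr.

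The striated-type sum of Tpm1 fell 3.84-fold in shPkm1 (log2 fold change -1.94, SE 0.16, adjusted p = 3.51e-07) and 31.2-fold in the pair labelled shPkm2 (-4.96, SE 0.18, adjusted p = 8.19e-11). Its sum with other ends rose 1.31-fold (0.39, SE 0.14, adjusted p = 0.0255) and 1.60-fold (0.68, SE 0.14, adjusted p = 0.000668). The smaller of these rises was not called without shScr replicate 1 (0.18, adjusted p = 0.165), without shPkm1 replicate 1 (0.41, adjusted p = 0.0990) or without shPkm1 replicate 2 (0.38, adjusted p = 0.112). Thus 1 gene carried a class that fell and a class that rose in the pair labelled shPkm2. Striated-type transcripts were 79.6% and 72.6% of Tpm1 TPM in shScr, 46.9% ± 2.7 (SD, n = 2) in shPkm1, and 8.50% and 8.87% in the pair labelled shPkm2.

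Tpm2 held a striated-type end in 99.9% of its curated TPM in shScr, 99.5% in shPkm1 and 96.6% in the pair labelled shPkm2. Over all Tpm2 TPM, transcripts with no structure included, the striated-type share went up, from 31.9% ± 5.3 (SD, n = 2) to 38.7% ± 0.40 and 52.7% ± 0.051, while the striated-type sum itself fell in both hairpins (log2 fold change -1.57, SE 0.14, adjusted p = 6.05e-07, and -3.71, SE 0.15, adjusted p = 1.96e-10). The other ends of Tpm2 are 1 transcript, NM_001277876.1, which the fit of class sums called higher (1.59, SE 0.27, adjusted p = 0.000231, and 2.50, SE 0.26, adjusted p = 1.7e-06). The fit of single transcripts did not call it in shPkm1 (1.63, adjusted p = 0.0664) or between the hairpins (0.91, adjusted p = 0.256). It called it in the pair labelled shPkm2 (2.53, adjusted p = 0.0168), and lost that call whichever library of the pair or of shScr was left out (adjusted p 0.0583 to 0.0994). That transcript was 0.0142% and 0.0233% of Tpm2 TPM in shScr and 1.53% and 2.24% in the pair labelled shPkm2. The call of the class sum between the hairpins (0.91, SE 0.21, adjusted p = 0.00296) was lost without replicate 2 of the pair labelled shPkm2 (0.59, adjusted p = 0.0897).

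The striated-type sum of Tpm3 fell under both hairpins against shScr, with log2 fold changes of -1.02 (SE 0.10, adjusted p = 1.5e-06) and -1.14 (SE 0.10, adjusted p = 3.04e-07). The direct difference between the hairpins was -0.12 (SE 0.10, adjusted p = 0.311), near 0 and positive (0.0057) under library totals. Its sum with other ends was not called in shPkm1 (-0.17, SE 0.12, adjusted p = 0.21) and rose in the pair labelled shPkm2 (0.76, SE 0.12, adjusted p = 6.24e-05). Without shScr replicate 1 the first of these was called lower (-0.26, adjusted p = 0.0386), and it was positive under library totals (0.02) and in limma on log2(TPM + 1) (0.20). The striated-type share of Tpm3 TPM went from 48.8% and 43.9% in shScr to 20.6% and 21.0% in shPkm1 and 11.6% ± 0.74 (SD, n = 2) in the pair labelled shPkm2.

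**Figure D3:**
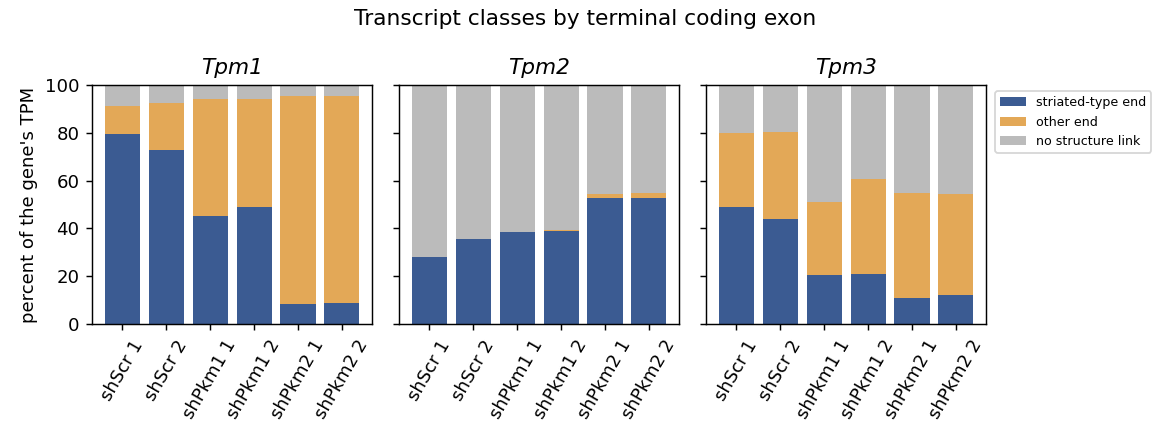
Percent of each gene's TPM by the class of the last coding exon, 1 stacked bar per library. The striated-type part of Tpm1 shrinks from 79.6% and 72.6% in shScr to 8.50% and 8.87% in the pair labelled shPkm2, while 45.1% to 71.8% of Tpm2 TPM has no structure link.

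**Figure D4:**
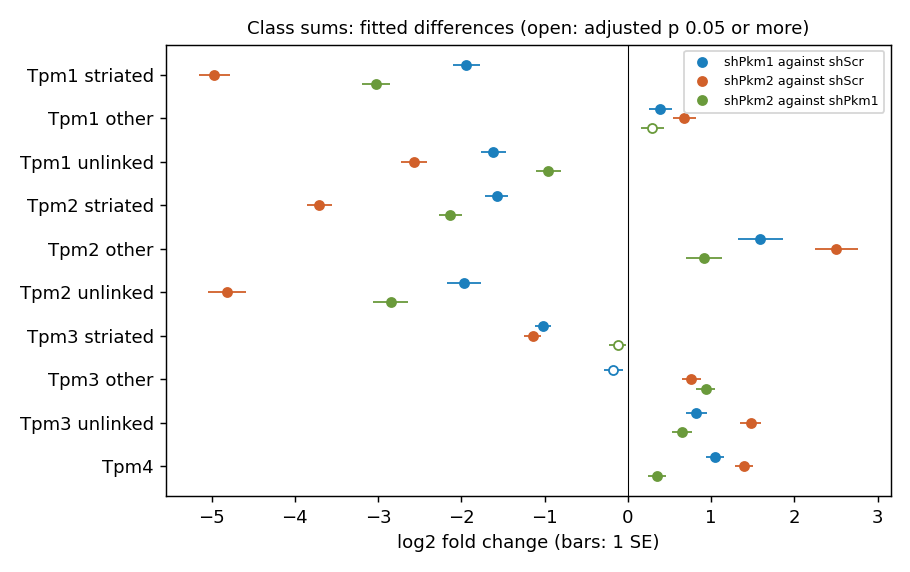
Log2 fold changes of the class sums and of Tpm4 from edgeR's fit, with bars of 1 SE, filled where the adjusted p is under 0.05. All striated-type sums lie left of 0 against shScr, and the Tpm1 striated-type sum reaches -4.96 in the pair labelled shPkm2.

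Over all 4 genes, the curated transcripts with a long start and a striated-type end summed to 4951 and 4215 TPM in shScr, 1701 and 1835 in shPkm1, and 360 and 350 in the pair labelled shPkm2. Curated transcripts with a short start and a non-muscle end went the other way, from 179 and 224 TPM to 714 and 674 and then 1117 and 1068. Most of that sum is Tpm4, at 177 and 223, 567 and 514, and 729 and 709 TPM. In shScr the long striated forms were 46.1% ± 2.1 (SD, n = 2) of tropomyosin TPM and the short non-muscle forms 2.07% ± 0.65. In the pair labelled shPkm2 the shares were 11.5% ± 0.068 and 35.4% ± 0.18. Transcripts with no structure, which neither form counts, held 43.5% ± 5.9 in shScr, 31.9% ± 0.60 in shPkm1 and 16.2% ± 0.10 in that pair.

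Single transcripts were tested in a separate fit over 33433 transcripts, of which 26 were tropomyosins. Between shPkm1 and shScr 10 of the 26 passed, against 10.8% of all transcripts. Between the pair labelled shPkm2 and shScr 15 passed, against 17.2%, and between the hairpins 9 passed, against 7.91%. These transcripts passed a filter on low counts, so the counts do not describe all 42. Transcripts of 1 gene share most of their exons, and their values depend on how shared reads were divided. The only Tpm4 transcript, NM_001001491.1, was called against shScr (1.08, adjusted p = 0.00808, and 1.43, adjusted p = 0.00208) and not between the hairpins (0.35, adjusted p = 0.110). Its call in shPkm1 was lost without shPkm1 replicate 1 (1.05) or replicate 2 (1.09). Leaving out shPkm1 replicate 1 left 2 of the 10 calls against shScr and 3 of the 9 between hairpins, and leaving out shPkm1 replicate 2 left 3 and 2. Of the 15 calls of the pair labelled shPkm2 against shScr, 13 were kept without either shScr library or either library labelled shPkm2, and 15 without either shPkm1 library.

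In Tpm1, the most abundant transcript was striated-type in shScr and non-muscle in the pair labelled shPkm2. NM_001164248.1, with a long start and a striated end, was at 2904 and 2375 TPM in shScr, 839 and 943 in shPkm1, and 122 and 121 in the pair labelled shPkm2. It fell under both hairpins (log2 fold change -1.93, SE 0.19, adjusted p = 0.00964, and -4.88, SE 0.21, adjusted p = 0.00103). The call in shPkm1 was lost without shPkm1 replicate 1 (adjusted p = 0.0869) or replicate 2 (adjusted p = 0.0635). NM_024427.4, with a long start and a non-muscle end, was at 438 and 671, 876 and 854, and 1007 and 967 TPM in the same order. Its own level was not called in any comparison (0.30, adjusted p = 0.359, and 0.42, adjusted p = 0.185, against shScr), although it was the most abundant tropomyosin transcript in the pair labelled shPkm2.

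The short non-muscle Tpm1 transcript NM_001164252.1 was near 0 in shScr. It was at 1.45 and 0.89 TPM there, 71.4 and 66.5 in shPkm1, and 153 and 142 in the pair labelled shPkm2. It rose in each comparison (5.51, SE 0.26, adjusted p = 0.00274, and 6.54, SE 0.26, adjusted p = 0.000915, against shScr, and 1.03, SE 0.19, adjusted p = 0.0477, between hairpins). The last of these calls was lost whichever hairpin library was left out (adjusted p 0.212 to 0.223). NM_001164250.1, whose linked structure differs from that of NM_024427.4 in exon 6, was at 1.69 and 3.78, 20.7 and 10.8, and 73.7 and 78.1 TPM. It rose in the pair labelled shPkm2 (4.39, SE 0.48, adjusted p = 0.00668). In shPkm1 it was at the threshold (2.17, SE 0.45, adjusted p = 0.0498), and that call was lost whichever of the 6 libraries was left out (adjusted p 0.0668 to 0.178).

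Both rarer striated-type transcripts of Tpm1 were at or near 0 in the pair labelled shPkm2, where only NM_001164254.1 was called lower than in shScr. NM_001164254.1, with a short start, was at 100 and 65.2 TPM in shScr, 50.3 and 58.6 in shPkm1, and 0 in both libraries labelled shPkm2. Set against a floor of 3 counts per library, it was at least 480-fold lower there than in shScr. That bound takes the division of shared reads as given. Against shScr it was called there (adjusted p = 0.00327) and not in shPkm1 (-0.97, adjusted p = 0.171). NM_001164251.1 was at 36.7 and 26.9 TPM in shScr and between 0 and 1.66 in the other 4 libraries, but was not called (adjusted p = 0.181 and 0.133 against shScr). The exon 6 form at chr9:67031951-67032026 held 96.5% ± 0.65 (SD, n = 2) of linked Tpm1 TPM in shScr, 96.3% ± 0.11 in shPkm1 and 94.2% ± 0.30 in the pair labelled shPkm2.

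None of the 13 predicted Tpm1 transcripts has a structure here, and 3 of them reached a mean of 50 counts. XM_006511040.3 fell in each comparison, from 298 and 243 TPM in shScr to 109 and 110 in shPkm1 and 55.9 and 51.9 in the pair labelled shPkm2 (-1.67, adjusted p = 0.0096, and -2.76, adjusted p = 0.0018, against shScr, and -1.09, adjusted p = 0.0263, between hairpins). The call in shPkm1 was lost without shPkm1 replicate 1 (adjusted p = 0.0890) or replicate 2 (adjusted p = 0.0698), and the call between hairpins whichever hairpin library was left out (adjusted p 0.119 to 0.148). XM_006511041.1 was at 33.3 TPM in shScr replicate 1 and at 3.04 to 5.84 in the other 5 libraries, so its mean rests on 1 library. XM_006511045.2 lay between 1.46 and 5.09 TPM in all 6 libraries and was not called.

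For Tpm2, the gene sum rested mainly on 2 transcripts in shScr and shPkm1. The predicted XM_006537780.1 was at 4897 and 3171 TPM in shScr, 1365 and 1373 in shPkm1, and 206 and 193 in the pair labelled shPkm2. The curated NM_009416.4 was at 1826 and 1658, 684 and 662, and 114 and 120 TPM. Both fell under each hairpin (-1.93, adjusted p = 0.0207, and -4.78, adjusted p = 0.00202, for the predicted transcript, and -1.73, adjusted p = 0.00728, and -4.32, adjusted p = 0.000786, for the curated one). In shPkm1 the call of XM_006537780.1 was lost with only the groups compared (adjusted p = 0.0577) and whichever of the 4 hairpin libraries was left out (0.0633 to 0.138). That of NM_009416.4 was lost without shPkm1 replicate 1 (adjusted p = 0.0744) or replicate 2 (0.0618).

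The curated NM_001277875.1 did not follow them. It was at 95.7 and 102 TPM in shScr, 171 and 219 in shPkm1, and 123 and 106 in the pair labelled shPkm2. In that pair it was thus close to NM_009416.4 (114 and 120) and a large part of the gene sum (450 and 428). NM_001277875.1 was not called in any comparison (adjusted p from 0.0503 to 0.439). NM_001277875.1 and NM_009416.4 carry the same GENCODE link although their effective lengths differ (2037 and 3193 bases), so how their coding exons differ is not given here. The non-muscle NM_001277876.1 was at 0.97 and 1.15, 4.77 and 3.68, and 6.86 and 9.61 TPM, the lowest of the 4.

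In Tpm3, the balance between the short and the long start differed between groups. NM_001253738.1, short with a non-muscle end, was at 0 TPM in both shScr libraries, 76.1 and 94.2 in shPkm1, and 232 and 216 in the pair labelled shPkm2. Against the floor of 3 counts per library, with shared reads taken as divided, it was at least 579-fold higher in shPkm1 than in shScr. In the pair labelled shPkm2 it was at least 1451-fold higher than in shScr. These bounds do not cover another division of shared reads. NM_022314.3, with the same last coding exon, was given 2280 and 2902 counts in shScr. A transcript listed at 0 after shared reads are divided may still be present at a low level.

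Both long Tpm3 transcripts described here fell in the pair labelled shPkm2, 1 with each kind of end. NM_022314.3, long with a non-muscle end in GENCODE, was at 85.8 and 110 TPM in shScr, 27.4 and 26.8 in shPkm1, and 0.75 and 0 in the pair labelled shPkm2. It was not called in shPkm1 (-2.20, SE 0.54, adjusted p = 0.0747) and fell in the pair labelled shPkm2 (-8.45, SE 0.80, adjusted p = 0.00469). NM_001293748.1, long with a striated end, was at 88.5 and 53.4, 7.15 and 9.78, and 1.57 and 2.22 TPM, and fell under both hairpins (-3.43, adjusted p = 0.0152, and -5.68, adjusted p = 0.0036). Its call in shPkm1 was lost without shPkm1 replicate 1 (adjusted p = 0.110), shPkm1 replicate 2 (0.0782) or shScr replicate 1 (0.0503). The last exon therefore did not separate all transcripts by direction: NM_022314.3 has a non-muscle end and fell.

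Among linked Tpm3 transcripts the short start held 20.7% and 32.8% of TPM in shScr, 80.1% and 80.2% in shPkm1, and 99.2% in both libraries labelled shPkm2. In Tpm1 the short start stayed a minor part, at 2.51% ± 0.58 (SD, n = 2), 6.51% ± 0.065 and 11.1% ± 0.41. The short striated-type transcripts of Tpm3, NM_001253740.1 (21.2 to 61.4 TPM over the 6 libraries) and NM_001271764.1 (18.4 to 32.6), were not called in any comparison. They share 1 GENCODE link, and NM_001253740.1 turned sign without shScr replicate 2.

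Of the predicted Tpm3 transcripts, XM_006501841.3 rose from 34.1 and 43.4 TPM in shScr to 155 and 110 in shPkm1 and 242 and 234 in the pair labelled shPkm2 (1.41, adjusted p = 0.0138, and 2.20, adjusted p = 0.00293). Its call in shPkm1 was lost without shPkm1 replicate 1 (adjusted p = 0.0658) or shScr replicate 1 (0.0654). It was the most abundant Tpm3 transcript in shPkm1, and in the pair labelled shPkm2 it lay close to NM_001253738.1. XM_017319678.1 was at 18.8 and 14.6, 9.54 and 9.70, and 0 and 0 TPM, at least 196-fold lower in the pair labelled shPkm2 than in shScr. The 21 tropomyosin transcripts under a mean of 50 counts ranged from 0 to 39.0 counts on average.

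**Figure D5:**
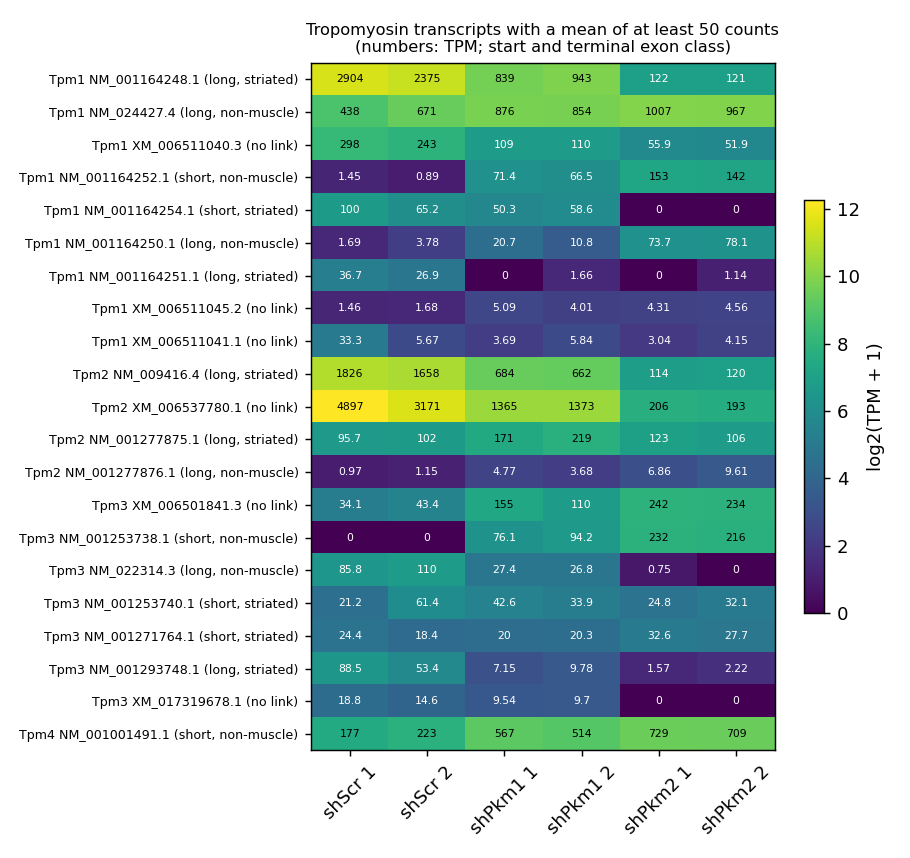
TPM of the 21 tropomyosin transcripts with a mean of at least 50 counts, 1 row per transcript and 1 column per library, coloured by log2(TPM + 1). In Tpm3, NM_001253738.1 appears (0 and 0 in shScr, 232 and 216 in the pair labelled shPkm2) as NM_022314.3 disappears (85.8 and 110, then 0.75 and 0).

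The 250 bases before the RefSeq starts of the long and short Tpm3 transcripts are shown because the share of the short start differed between groups (RefSeq, GRCm38.p6). Capitals mark each CANNTG, the letters bound by MyoD-family factors, searched on both strands. The first lies at chr3:90072401-90072650 and the second at chr3:90079271-90079520, both on the plus strand.
Tpm3 long start: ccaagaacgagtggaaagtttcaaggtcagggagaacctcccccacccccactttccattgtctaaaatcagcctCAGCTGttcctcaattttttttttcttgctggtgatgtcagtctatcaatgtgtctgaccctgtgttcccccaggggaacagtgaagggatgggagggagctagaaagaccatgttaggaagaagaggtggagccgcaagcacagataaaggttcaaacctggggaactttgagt
Tpm3 short start: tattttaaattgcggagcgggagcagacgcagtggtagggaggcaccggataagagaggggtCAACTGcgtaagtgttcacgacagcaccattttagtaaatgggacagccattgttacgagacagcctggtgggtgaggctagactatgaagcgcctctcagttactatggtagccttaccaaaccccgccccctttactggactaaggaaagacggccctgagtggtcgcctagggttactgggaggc

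Each window holds 1 CANNTG. At least 1 was found in 66.2% of the 32851 RefSeq promoters with a window of this length. The form CAGCTG, which overlaps CANNTG and is found in 13.0% of them, was in the long-start window of Tpm3 and in the window of Tpm2, and not in the windows of Tpm1, Tpm4 or the short start of Tpm3. The Tpm4 window held no CANNTG. The CArG box, the motif of Srf, was in none of the 5 windows and in 1.47% of all. A match is a run of letters and does not show that a factor binds.

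A test of usage asked whether a transcript moved differently from the rest of its gene. It was made on 28695 transcripts, 25 of them tropomyosins. In shPkm1 against shScr 8 of the 25 were called, against 0.411% of all transcripts. In the pair labelled shPkm2 against shScr 15 were called, against 1.10%, and between the hairpins 8 were called, against 0.526%. The shares over all transcripts stand beside the counts as a description and not as a test of the family.

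Tpm1 showed the balance plainly. Usage of NM_024427.4 rose in shPkm1 (log2 difference from its gene 0.92, adjusted p = 0.00188) and in the pair labelled shPkm2 (1.28, adjusted p = 4.06e-06), although its level was not called. The call in shPkm1 was lost without shPkm1 replicate 1 (adjusted p = 0.156), shPkm1 replicate 2 (0.0685) or shScr replicate 1 (0.103). Usage of NM_001164248.1 was not called in shPkm1 (-0.63, adjusted p = 0.0756) and fell in the pair labelled shPkm2 (-2.39, adjusted p = 1.22e-11). In Tpm3, usage of NM_022314.3 fell in shPkm1 (-1.46, adjusted p = 0.000694) and in the pair labelled shPkm2 (-6.24, adjusted p = 7.95e-13). The first of these was lost without shPkm1 replicate 1 (adjusted p = 0.145) or replicate 2 (0.0922). In limma's diffSplice the second was not called (-10.7, adjusted p = 0.0992). Usage of NM_001253738.1 rose in shPkm1 (9.74, adjusted p = 3.44e-13) and in the pair labelled shPkm2 (10.2, adjusted p = 3.22e-14). In diffSplice neither of these rises was called (adjusted p = 0.202 and 0.138). In Tpm2, usage of NM_009416.4 was not called (-0.02, adjusted p = 1, and -0.18, adjusted p = 1), and that of NM_001277875.1 rose (1.62, adjusted p = 7.92e-05, and 2.67, adjusted p = 2.01e-07). Without shPkm1 replicate 1, 3 of the 8 usage calls in shPkm1 were kept, without shPkm1 replicate 2, 4 were kept, and without shScr replicate 1, 6 were kept. In diffSplice 6 of the 8 calls in shPkm1, 9 of the 15 in the pair labelled shPkm2 and 4 of the 8 between hairpins were kept. It also called usage of NM_001164248.1 lower in shPkm1 (-1.63, adjusted p = 1.98e-07) and that of NM_009416.4 lower in the pair labelled shPkm2 (-1.30, adjusted p = 0.0476).

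Genes for the proteins that share the thin filament with striated tropomyosin were lower under both hairpins, as the striated-type sums were. Of 14 such genes, for the actins, troponins, tropomodulins, leiomodins and nebulin of striated muscle, 13 fell in each of the 3 comparisons and none rose, where 63.1%, 68.0% and 53.0% of all genes were called either way. Their median log2 fold change was -1.64 in shPkm1 and -7.12 in the pair labelled shPkm2, beside medians of 0.00 and 0.01 over all genes tested. Tnnc2, fast troponin C, fell in both (log2 fold change -2.39 and -8.02). Acta1, skeletal actin, fell as well (-1.66 and -7.80). The exception, Tmod4, had between 9 and 25.1 counts and was not called. Summed, the 14 genes were at 42864 and 25195 CPM in shScr, 9604 and 10961 in shPkm1, and 233 and 234 in the pair labelled shPkm2. Beside the median of -7.12 in the pair labelled shPkm2, the striated-type sums of Tpm1, Tpm2 and Tpm3 had log2 fold changes of -4.96, -3.71 and -1.14. The gene sums of Tpm1 and Tpm2, which include other transcripts, had -1.46 and -4.10.

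Of 10 partners of non-muscle tropomyosin tested, 5 rose and 1 fell in shPkm1, 8 rose and 1 fell in the pair labelled shPkm2, and 6 rose and none fell between hairpins, where 63.1%, 68.0% and 53.0% of all genes were called either way. The 6 called in shPkm1 and the 6 between hairpins are thus near the shares over all genes. The medians of the list were 0.30, 0.84 and 0.42 (log2). Cald1, caldesmon, rose by 1.13 and by 1.56. Tmod3, which caps actin filaments bound by tropomyosin, rose by 1.40 and by 1.35. Myh10, non-muscle myosin IIB, rose in the pair labelled shPkm2 by 1.56. Cfl2, the muscle cofilin, was the member that fell in both (-1.09 and -1.38).

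Regulators of tropomyosin splicing moved in both directions. Of 17 tested, 6 rose and 6 fell in shPkm1, 9 rose and 6 fell in the pair labelled shPkm2, and 7 rose and 8 fell between hairpins (all genes, either way, 63.1%, 68.0% and 53.0%). The count in shPkm1 lies near the share over all genes. Ptbp1, known to repress muscle exons of tropomyosin genes, was at 3097 and 3888 counts in shScr, 5338 and 5996 in shPkm1, and 13440 and 12695 in the pair labelled shPkm2. Ptbp1 rose in each comparison (log2 fold change 0.50, adjusted p = 0.00115, 1.57, adjusted p = 3.07e-08, and 1.08, adjusted p = 1.98e-06). Against shScr, Mbnl1 rose by 1.32 and by 1.49, Mbnl2 by 1.30 and by 0.93, and Mbnl3 by 1.60 and by 2.61. Ptbp3 rose by 1.17 and by 1.72. Rbfox1, which promotes muscle exons, was at 488 and 294 counts in shScr, 61.0 and 61.0 in shPkm1, and 4 and 9 in the pair labelled shPkm2. Rbm24, a muscle splicing activator, was not called in shPkm1 (-0.51, adjusted p = 0.0764) and fell (-6.43) in the pair labelled shPkm2. Rbm38 fell in both (-2.44 and -3.23). Whether any of these changes bears on the tropomyosin transcripts was not tested.

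Srf, a factor that drives actin cytoskeleton genes, fell in shPkm1 (log2 fold change -0.81) and in the pair labelled shPkm2 (-0.86). Of 7 genes tested among Srf, its cofactors and Mef2 factors, none rose and 3 fell in shPkm1, and 1 rose and 4 fell in the pair labelled shPkm2. Against 63.1% and 68.0% of all genes, the first count is below that share and the second is near it. Mef2c fell in both (-2.25 and -6.02), and Mrtfb, a cofactor of Srf, rose by 0.52 in the pair labelled shPkm2. Between hairpins 1 rose and 3 fell, near the 53.0% of all genes called there. Myocd was at or under 3 counts in every library.

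Markers of cell state moved with the tropomyosins. All 8 myotube markers fell in each comparison (all genes called either way, 63.1%, 68.0% and 53.0%), from a sum of 24540 and 19312 CPM in shScr to 7997 and 9012 in shPkm1 and 1335 and 1277 in the pair labelled shPkm2. Of 8 markers of proliferating myoblasts, 7 rose in shPkm1 and 8 in each other comparison, beside the same shares over all genes, with sums of 287 and 360, 674 and 695, and 1873 and 1727. Their part in the tropomyosin results was not tested. Both marker sums were above 0 in every library, beside the labelled cell type of myoblasts under differentiation.

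Smooth muscle cells use tropomyosins as well, with the last exon that is called non-muscle here. Of 7 smooth muscle markers tested, 3 rose and 2 fell in shPkm1, 1 rose and 5 fell in the pair labelled shPkm2, and 7 fell between hairpins, where 63.1%, 68.0% and 53.0% of all genes were called. Their summed level was 18953 and 12676, 7542 and 8295, and 3419 and 3638 CPM. Most of that sum is Acta2, smooth muscle actin, at 285845 and 212349 counts in shScr, 125917 and 146237 in shPkm1, and 65306 and 69366 in the pair labelled shPkm2. Acta2 fell in both (log2 fold change -1.09 and -2.24), whereas Cnn1 rose in both (1.64 and 0.50) and Tagln rose in shPkm1 (1.22) and fell in the pair labelled shPkm2 (-1.14). Of 4 fibroblast markers tested, 4 rose in shPkm1, 1 rose and 2 fell in the pair labelled shPkm2, and 3 fell between hairpins, against the same shares. Their sum was 13630 and 14024 CPM against 2683 and 2613 in shScr and 1122 and 1055 in the pair labelled shPkm2. Most of that sum is the collagen genes Col1a1 and Col1a2. Col1a1 rose in shPkm1 and fell in the pair labelled shPkm2 (2.44 and -3.41), and Col1a2 rose in shPkm1 (2.32) and was not called in the pair (-0.25, adjusted p = 0.0922). Pdgfra, a growth factor receptor, rose in both (2.30 and 2.46), from 81 and 128 counts in shScr to 561 and 619 in shPkm1 and 735 and 708 in the pair labelled shPkm2. Thy1 was at or under 3 counts in all 6 libraries. Osteoblast markers summed to 14.5 to 45.8 CPM, with Ibsp at or under 3 counts throughout. Of the 2 that could be tested, Runx2 rose against shScr in both (1.26 and 1.27). Adipocyte markers summed to 15.8 to 64.4, with Adipoq and Plin1 at or under 3 counts. Of the 2 that could be tested, Pparg rose in shPkm1 (0.88) and fell between hairpins (-0.58), and Lpl rose in the pair labelled shPkm2 (1.73) and between hairpins (1.77). The part of these markers in the tropomyosin results was not tested.

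The genes whose levels most resembled each tropomyosin over the 6 libraries were found among 10710 genes, by the root mean square difference of centred log2 CPM. This measure describes these libraries only, and replicates within a group make the 6 points less than independent. Nearest to Tpm1 were Alkbh7 (0.017), Uqcrq, Ubac1, Hras and Hagh (0.077). Nearest to Tpm2 were Stac3 (0.15), Txlnb, Ccdc88c, Usp2 and Best1 (0.18). Nearest to Tpm3 were Smpd4 (0.028), Trim28, Pan2, Cpne1 and Fam117a (0.051). Nearest to Tpm4 were Pkmyt1 (0.023), Rai14, Uhrf2, Dnajc10 and Fam117b (0.067). Among the tropomyosins themselves, Tpm3 and Tpm4 were most alike (0.50) and Tpm2 and Tpm4 least (2.24).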

How the data were processed

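RNA of 6 libraries, 2 per group, had been sequenced and summarised by the authors in 1 table with an estimated count and a TPM value per RefSeq transcript and library. The submitters' processing notes name HISAT, Bowtie, StringTie, RSEM and DESeq2 and build mm10, without their roles. The deposited estimated counts need not be whole. They were summed per gene and rounded. The deposited TPM values, scaled to length and to a total of 1000000, were used for levels. The deposited FPKM values, also made by the authors, gave each transcript's effective length when set against its counts. Genes were named by NCBI number (17445 of 17558 matched).

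Counts were tested in edgeR 4.0.16 (R 4.3.3): TMM scaling, filterByExpr, a quasi-likelihood fit on all 6 libraries with 1 coefficient per group, 3 contrasts, and Benjamini-Hochberg adjustment over all rows, with a threshold of 0.05. Usage was tested with diffSpliceDGE. Classes follow the last coding exon of the GENCODE M21 transcript linked to each RefSeq one. The design named striated and other ends, and transcripts with no link (23) were kept as a class of their own. GENCODE links give coding structure only, since untranslated parts differ, and 4 transcripts shared a link. The group means in the table (9 columns) were not used.

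Named were the 4 genes, their transcripts with a mean of at least 50 counts, up to 2 called members per direction from each list and comparison (largest fold, mean of at least 50 counts), and the 5 nearest genes. Srf, Tmod4, Mbnl2, Ptbp1 in the comparisons with shScr, and markers at or under 3 counts were named after their values were seen. Members and lists were chosen with earlier results of these data known. Fits were tested on simulated data. Alternatives used DESeq2 1.42.0 and limma 3.58.1, other scalings and filters, a replicate block, and each library left out.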

Additional observations from a re-analysis of the deposited data

How the results depend on the processing

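Of 180 refits of the 12 tropomyosin gene comparisons, 168 kept direction and side of the threshold. Values here are log2 fold changes, and counts follow the order shPkm1 against shScr, the pair labelled shPkm2 against shScr, and between hairpins. Scaling by library totals or limma on TPM turned the sign of some values that were not called. Tpm3 in shPkm1 was at 0.064 under library totals, 0.157 in limma on log2(TPM + 1) and 0.157 on log2(TPM + 0.1). In the same order, Tpm3 with other ends in shPkm1 was at 0.017, 0.202 and 0.204. NM_001277875.1 in the pair labelled shPkm2 was at 0.077, 0.202 and 0.204. NM_001253740.1 in shPkm1 went from -0.44 to 0.070 and 0.077 in limma. Under library totals, Tpm3 striated-type ends (0.0057) and XM_006511045.2 (0.035) turned between hairpins. Tpm1 between hairpins was not called under library totals (-0.27). Leaving out a library gave -0.46 to -0.34 for Tpm1 and 0.32 to 0.37 for Tpm4 between hairpins, -0.98 to 0.42 for NM_001253740.1 in shPkm1, -0.20 to 0.034 for XM_006511045.2 between hairpins, -0.20 to 0.37 for NM_001271764.1 in the pair labelled shPkm2, and -0.11 to 0.050 for usage of NM_009416.4 in shPkm1. The lone library of a group was then assumed to vary like the others. Of the genes, 6047 to 8285, 7231 to 8797 and 4939 to 7987 were called over all alternatives.

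Transcript counts moved most. From 3622, 5762 and 2644 they became 8581, 10370 and 6970 in DESeq2. Leaving out a library gave 138 to 2484, 2123 to 4293 and 404 to 2200. For shPkm1 against shScr they were 1922 with only the groups compared, 5682 in limma on log2(TPM + 1) and 5482 on log2(TPM + 0.1). Usage calls went from 118, 317 and 151 to 346, 801 and 305 in limma's diffSplice, which kept 6 of 8, 9 of 15 and 4 of 8 tropomyosin calls, and to 47 to 130, 172 to 276 and 82 to 141 without a library. The cause was not tested.

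Over all genes, same-numbered libraries showed little shared deviation, with r of -0.026, 0.042 and 0.053. With 2 libraries per group, and genes of low count weighted like the others, these values cannot exclude pairing. A fit with a replicate block kept all 11 calls of tropomyosin gene sums and gave 7922, 8566 and 6682 genes in place of 7984, 8602 and 6703. With the block, calls were 1592, 3711 and 1304 for transcripts and 64, 192 and 77 for usage. Of the tropomyosin calls it kept 7 of 10, 13 of 15 and 5 of 9 for transcripts, losing among others XM_006537780.1 and NM_001293748.1 in shPkm1 and NM_001164252.1 and NM_022314.3 between hairpins, and 7 of 8, 11 of 15 and 6 of 8 for usage.

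The striated-type share of a gene depended on its definition. In the order shScr, shPkm1, pair labelled shPkm2, it went down in Tpm1 and Tpm3 under each definition. In Tpm2 it went up over all transcripts (53.6%, 59.4% and 69.3% of estimated counts) and down over curated TPM. For Tpm1 it was 70.8%, 38.7% and 6.28% of estimated counts and 82.9%, 49.9% and 9.09% of curated TPM. For Tpm3 it was 39.8%, 21.5% and 12.6% of estimated counts and 57.9%, 37.4% and 21.3% of curated TPM. Depth and the division of shared reads may limit the values of transcripts under 50 counts and those listed at 0, which was not tested.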
